A study of Mus musculus with 10 samples.

Results

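Cyclins, the regulatory subunits that switch cyclin-dependent kinases (CDKs) on, were examined together with a CDK inhibitor and a CDK-activating phosphatase in mouse embryonic stem cells labelled wild type (WT) or knockout (KO) for the m6A methyltransferase Mettl3. The set is a list of gene names with no threshold on a measured value, and holds 9 of the 30419 genes in the window files. The members are Ccnd1, Ccnd2 and Ccnd3, Ccne1 and Ccne2, Ccna2, Ccnb1, Cdkn1b and Cdc25a. Of these, 8 passed the coverage filter of the tests. Ccnd2, with a mean input coverage of 0.765 over the WT and KO inputs, did not pass the filter and is described mainly by its values.

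D-type cyclins pair with the kinases Cdk4 and Cdk6 in the first gap phase and start the phosphorylation of the retinoblastoma protein, which frees E2F factors. E-type cyclins, with Cdk2, carry cells into DNA replication. Cyclin A2 acts through replication and into mitosis, and cyclin B1 with Cdk1 drives mitotic entry. Cdkn1b (p27) binds cyclin-CDK complexes and holds them inactive, and the phosphatase Cdc25a removes inhibitory phosphates from the kinases. Embryonic stem cells are known for a short first gap phase. N6-methyladenosine (m6A) is placed on messenger RNA by a complex whose catalytic subunit is Mettl3, often in long exons and near stop codons, and is known to shorten the life of many transcripts.

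The cells were J-1 mouse embryonic stem cells grown without feeders. The series holds 10 libraries in 5 pairs. Each pair is an immunoprecipitate (IP) of fragmented RNA with an m6A antibody and an input that was not precipitated. The first pair has no stated genotype, 2 pairs are labelled Mettl3 WT, and 2 pairs are labelled Mettl3 KO. The protocol text shared by all libraries also mentions differentiation by withdrawal of LIF, and no library is labelled as differentiated. The sources used here do not state how the knockout was made, how many clones it came from or whether replicates were separate cultures. The p-values thus rest on the spread between 2 WT and 2 KO libraries, part or all of which may be technical. The first pair is a single library of each kind and is described without a test.

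Coverage is the authors' signal per exon window, scaled per library, and a gene's level is its mean over windows, so levels can be set against each other per length. Depth relative to the first input was 0.438 and 0.457 in the WT inputs and 0.516 and 0.284 in the KO inputs. The IPs were thinner, at 0.159 and 0.0712 of the first IP in WT and 0.0644 and 0.0606 in KO, and 74.3% of windows were at 0 in the first KO IP. As a check of the labels, Mettl3 had input coverage of 4.79 and 4.67 in WT against 3.14 and 3.38 in KO. Mettl3 was lower by 31.1% in KO without overlap (limma adjusted p = 0.00259). It kept coverage in each of its 11 exons in both KO inputs, from 0.388 to 5.81 on average, so WT and KO stand here for the libraries labelled so. Summed coverage of 11 pluripotency markers was 2851 and 2941 in WT against 2341 and 2190 in KO. Of these 11 markers, 1 rose and 4 fell, where 26.6% of all genes tested passed in either direction. Fibroblast markers summed to between 3.93 and 11.7 in every input, with 8 of 10 under 1 and Lum at 0, and 1 of 2 tested rose. Summed coverage in the inputs was 25.3 to 47.3 for 6 trophectoderm markers, 21.6 to 39.4 for 6 neural markers (1 rose and 1 fell of 3 tested), 0.549 to 3.25 for 6 primitive endoderm markers and 0.703 to 2.41 for 5 mesoderm markers. The part of these marker differences in the values of the members was not tested.

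In the KO inputs Ccnd3 was the member that changed. Its coverage fell by 27.7%, whereas transcripts of the other D-type cyclin tested, both E-type cyclins, cyclin A2, cyclin B1, Cdkn1b and Cdc25a did not pass the test. Thus 1 of 8 members passed, against 26.6% of the 11211 genes tested by limma on log2(coverage + 1) with Benjamini-Hochberg adjustment. The median difference, KO minus WT, was -0.06 over the 8 members and -0.00 over all genes tested, on the log2 scale. A difference on this scale understates the change of genes with low coverage.

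**Figure D1:**
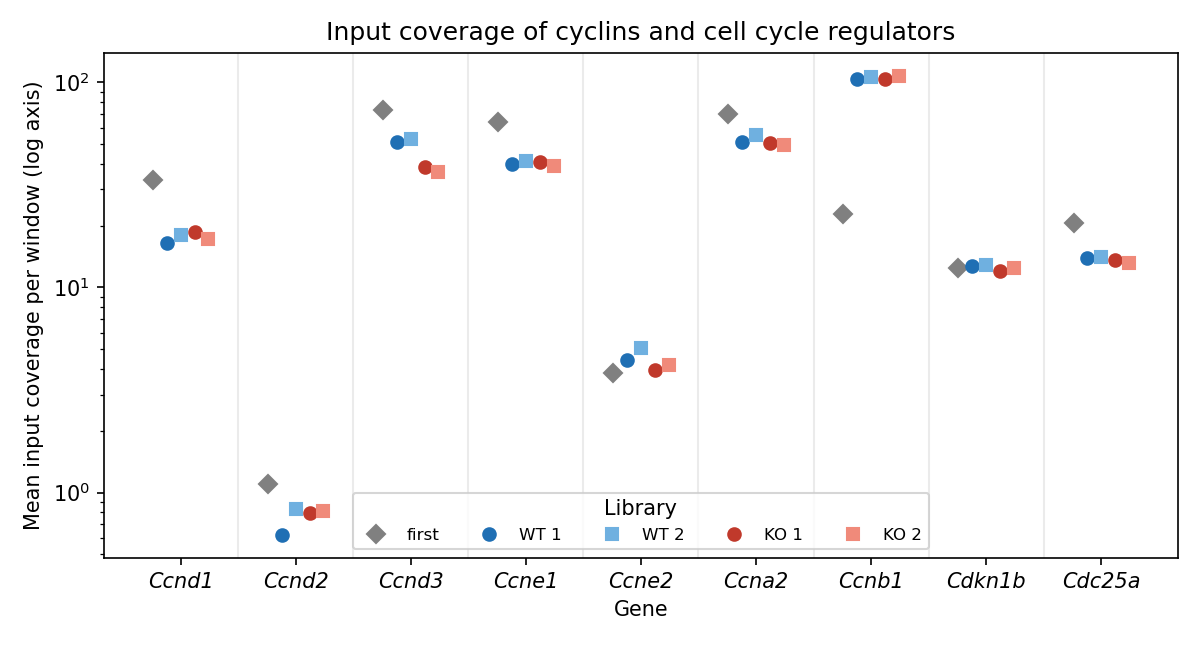
Mean input coverage per window (log axis) of the 9 genes in the first, WT and KO inputs, 1 point per library. The KO points of Ccnd3 (38.8 and 36.6) lie below its WT points (51.2 and 53.0), and Ccnb1 in the first input (22.9) lies far below its WT and KO points.

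Among the D-type cyclins, Ccnd3 had input coverage of 51.2 and 53.0 in WT against 38.8 and 36.6 in KO, with 73.4 in the first input. The KO values did not overlap the WT values, and the difference was -0.46 ± 0.065 (SE, log2 scale, 2 against 2, limma adjusted p = 0.00104). Over the 11 alternatives that used input coverage, the difference lay between -0.50 and -0.42 with adjusted p from 0.000312 to 0.0360. With the deposited RPKM columns, whose KO values are in doubt as described below, it was -1.54. In WT, Ccnd3 stood level with Ccna2 and above Ccne1. In KO it stood below Ccne1.

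The fall of Ccnd3 was seen in the mean of each covered exon, though not in every window. Exons are numbered here as in the files, which number them in genome order. Ccnd3 lies on the plus strand, so exon 7 is the one nearest the 3′ end. In exon 7, coverage was 80.4 and 83.7 in WT against 63.2 and 56.3 in KO. In exon 4 it was 53.2 and 55.4 in WT against 34.3 and 34.7 in KO. By their means, exons 3, 5 and 6 were also lower in both KO libraries than in both WT libraries. The ratio of KO to WT means ran from 0.635 in exon 4 to 0.830 in exon 3. In window 1 of exon 3 the groups overlapped, at 4.96 and 6.98 in WT against 5.73 and 4.81 in KO. Exons 1 and 2 stayed under 1 in all WT and KO inputs, so the fall was measured over exons 3 to 7. A pseudogene copy of Ccnd3 is annotated, and how reads with several positions were counted is not given, so some coverage may be shared with it.

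RefSeq (GRCm38.p6) lists a pair of start sites for Ccnd3, which are shown because the first exons of the gene model carried almost no coverage. The 100 bases before each start, on the plus strand, are at chr17:47504951-47505050 and chr17:47593367-47593466. A CCAAT box (CCAAT, searched on both strands) was sought as well as an E2F match (TTTGGCGC) and a cell cycle homology region (CHR, TTTGAA). Neither stretch of 100 bases held any of them. In the 250 bases before the downstream start there was 1 CCAAT box, which lies outside the stretch printed. The 250 bases before the upstream start held no CCAAT box.
Ccnd3 upstream start: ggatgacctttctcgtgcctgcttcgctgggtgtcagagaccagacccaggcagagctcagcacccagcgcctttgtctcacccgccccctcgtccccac
Ccnd3 downstream start: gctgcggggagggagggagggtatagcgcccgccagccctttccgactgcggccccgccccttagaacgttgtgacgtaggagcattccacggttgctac

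Ccnd1 had input coverage of 16.5 and 18.0 in WT against 18.6 and 17.1 in KO. The groups overlapped, and the difference of 0.05 ± 0.072 (SE, log2 scale) did not pass (limma adjusted p = 0.657). The first input stood apart at 33.2, which is 1.92 times the WT mean. Ccnd2 was near the floor of these libraries, at 0.624 and 0.827 in WT, 0.791 and 0.815 in KO, with 1.1 in the first input, and it lay below the coverage filter of the test. Without that filter its difference was 0.07 ± 0.081 (SE, log2 scale) and did not pass (limma adjusted p = 0.673).

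The E-type cyclins differed from each other in level by almost an order of magnitude. Ccne1 had input coverage of 40.0 and 41.3 in WT against 40.9 and 39.2 in KO, with overlap (difference -0.02 ± 0.063, SE, log2 scale, limma adjusted p = 0.834). Ccne2 had 4.44 and 5.08 in WT against 3.94 and 4.19 in KO. The KO values of Ccne2 lay below the WT values, and the difference of -0.18 ± 0.079 (SE, log2 scale) had an unadjusted p of 0.0429 and a limma adjusted p of 0.114, which did not pass.

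Ccnb1 was the most abundant member in the WT and KO inputs, though not in the first input, and Ccna2 stood next to it, level with Ccnd3 in WT. Ccnb1 had input coverage of 103 and 106 in WT against 103 and 107 in KO, with a difference of 0.01 ± 0.065 (SE, log2 scale, limma adjusted p = 0.961). Its mean over the WT and KO inputs was above that of 97.0% of the genes tested. Ccna2 had 51.2 and 55.1 in WT against 50.6 and 49.5 in KO. The Ccna2 difference of -0.08 ± 0.066 (SE, log2 scale) did not pass (limma adjusted p = 0.378).

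Of the regulators of the kinases, the inhibitor Cdkn1b had input coverage of 12.8 and 12.9 in WT against 12.1 and 12.5 in KO. The phosphatase Cdc25a had 14.0 in both WT inputs and 13.6 and 13.2 in KO. Neither difference, -0.06 in each on the log2 scale, passed the test, with limma adjusted p of 0.536 for Cdkn1b and 0.532 for Cdc25a. The KO means were lower by 4.18% in Cdkn1b and 4.16% in Cdc25a. In all, 5 of the 8 members tested (Ccnd3, Ccne2, Ccna2, Cdkn1b and Cdc25a) had both KO inputs below both WT inputs, against 34.0% of all genes tested.

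By level in WT the order was Ccnb1, Ccna2, Ccnd3, Ccne1, Ccnd1, Cdc25a, Cdkn1b, Ccne2 and Ccnd2. Ccna2 and Ccnd3 overlapped between the WT libraries, and the other neighbours in that order did not. In the first input the order was another one, with Ccnd3 at 73.4, Ccna2 at 70.0 and Ccne1 at 64.0 ahead of Ccnd1 at 33.2, which was followed by Ccnb1 at 22.9.

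The low value of Ccnb1 in the first input went with windows that held almost no coverage. Ccnb1 had at least 10 in both WT inputs in 47 of its 51 windows, and in 19 of these 47 (40.4%) the first input held less than 1. In 17 of them both WT inputs held at least 50. The other windows were lower as well, with a mean of 36.3 in the first input against 104 in WT over the windows of at least 1 in the first input. Exon 3 averaged 0.390 in the first input and 101 and 93.3 in WT, whereas exon 6 averaged 57.6 in the first input and 92.8 and 103 in WT. No such window was found in Ccnd1, Ccne1, Ccna2, Cdkn1b and Cdc25a, and Ccnd3 had 1. Ccne2 had a single window with at least 10 in both WT inputs and could not be compared. Of 4799 genes with 10 or more windows to compare, 7.13% had a share of gaps as large as that of Ccnb1 or larger. The column headers of the first pair carry the word unique and those of the other pairs do not, and a Ccnb1 pseudogene is annotated. The part of read uniqueness in these gaps was not tested.

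**Figure D2:**
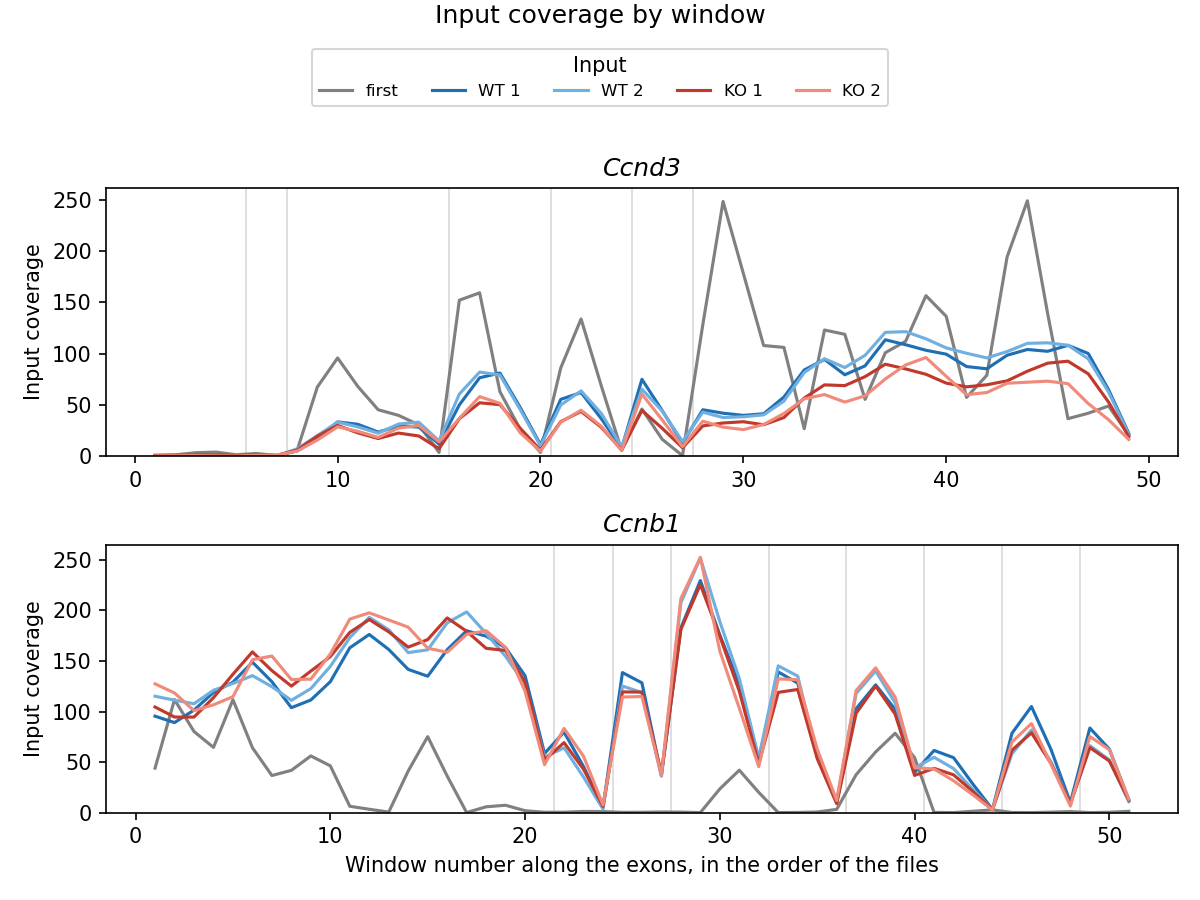
Input coverage in each window of Ccnd3 and Ccnb1 along the exons in the order of the files, with grey lines at exon borders and 1 line per input. By exon mean, both KO inputs of Ccnd3 lie below both WT inputs in exons 3 to 7, though not in window 1 of exon 3. The first input of Ccnb1 drops under 1 in 19 windows where both WT inputs hold at least 10.

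Ccnb1 had the largest range of input level over the 5 inputs, 2.18 on the log2 scale, against 0.08 to 0.98 for the other members tested. By Euclidean distance of log2(coverage + 1) from each gene's own mean over the 5 inputs, the nearest of 11210 other genes were Hspa8 at a distance of 0.0341, Apoo-ps at 0.0507 and Tomm5 at 0.0581. Hspa8, which encodes a constitutive heat shock chaperone, had 204 in the first input and 884 and 918 in WT. Tomm5 had 14.5 in the first input and 69.2 and 68.1 in WT. These profiles, like that of Ccnb1, were set by the first input alone.

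The deposited RPKM columns gave other values for KO. Across 11211 genes the columns labelled KO input correlated with the KO IP tracks at r = 0.958 and 0.973 and with the KO input tracks at 0.689 and 0.704, across genes that are not independent replicates. By those columns Ccnb1 had 121 and 124 RPKM in WT and 18.2 and 25.4 in KO, whereas its input tracks did not differ. Cdkn1b had 13.2 and 13.3 RPKM in WT and 20.8 and 23.8 in KO. Levels of the members were for this reason taken from the input tracks.

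Among 78 other genes of the cell cycle in 6 lists, 73 were tested, 5 rose and 15 fell in the KO inputs. That is 27.4% passing, against the 26.6% of all genes. The counts depended on single libraries, as did the number passing among all genes tested. Each fit with 1 library left out leaves 1 library in a group, so its counts of rises and falls are not given. Of the 20 genes that passed, 7 passed with each library left out in turn, and these were Ccnf, Cdkn1c, Cdc25b, Rb1, E2f1, E2f2 and Cdc20.

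Of 13 other cyclins and CDKs tested, 2 rose and 2 fell, and 9 did not pass. The partner kinase of D-type cyclins Cdk6 rose from 2.97 and 3.27 in WT to 4.36 and 3.83 in KO. Cdk7, a kinase that activates other CDKs, rose from 4.81 and 4.84 to 5.96 and 6.11. Ccnf, a cyclin that serves as the substrate receptor of a ubiquitin ligase, fell from 37.3 and 38.2 to 30.1 and 27.3 (limma adjusted p = 0.00338). Ccng2 fell from 4.20 and 4.10 to 3.25 and 3.05.

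Of 5 other CDK inhibitors tested, 2 fell and 0 rose. Cdkn1c (p57), of the same family as Cdkn1b, fell from 5.53 and 6.19 in WT to 1.78 and 1.80 in KO, a difference of -1.30 ± 0.077 (SE, log2 scale, limma adjusted p = 9.54e-06). Cdkn1a (p21), the inhibitor best known as a p53 target, fell from 18.3 and 17.8 to 14.9 and 14.2. Both family members thus fell, whereas Cdkn1b itself did not pass.

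Of 15 phosphatases and checkpoint or mitotic kinases, 1 rose and 3 fell. Cdc25b, a paralogue of Cdc25a, fell from 5.23 and 5.50 in WT to 4.16 and 3.28 in KO (difference -0.44, log2 scale, limma adjusted p = 0.00865). Chek2 fell from 18.3 and 18.6 to 14.8 and 15.4. The spindle checkpoint gene Mad2l1 rose from 19.0 and 21.1 to 23.2 and 25.2. Bub1b fell by 0.19 on the log2 scale in all libraries together, and did not pass when any 1 of the 4 libraries was left out.

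Of 12 pocket proteins and E2F factors, 2 rose and 4 fell. Rb1, which encodes the retinoblastoma protein, fell from 4.0 and 4.42 in WT to 2.50 and 2.38 in KO, a difference of -0.60 ± 0.077 (SE, log2 scale, limma adjusted p = 0.000607). E2f2 fell from 1.88 and 1.99 to 0.981 and 0.751, and E2f1 fell from 11.8 and 11.0 to 8.80 and 8.03. The repressive family member E2f6 rose from 4.02 and 4.34 to 5.54 and 5.19. The remaining genes that passed, named after their values were seen, were Tfdp1, higher by 0.21, and Rbl1, lower by 0.24 (log2 scale).

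Of 14 genes for cyclin and inhibitor degradation, 2 fell and 0 rose. Cdc20, an activator of the anaphase-promoting complex, which marks Ccnb1 protein for destruction, fell from 63.2 and 62.3 in WT to 47.4 and 46.4 in KO (difference -0.41, log2 scale, limma adjusted p = 0.00143). Fzr1, the other activator, fell by 0.25 on the log2 scale. Of 14 replication licensing genes, Cdc45 and Orc1 fell, by 0.26 and 0.24 on the log2 scale, and 12 did not pass.

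**Figure D3:**
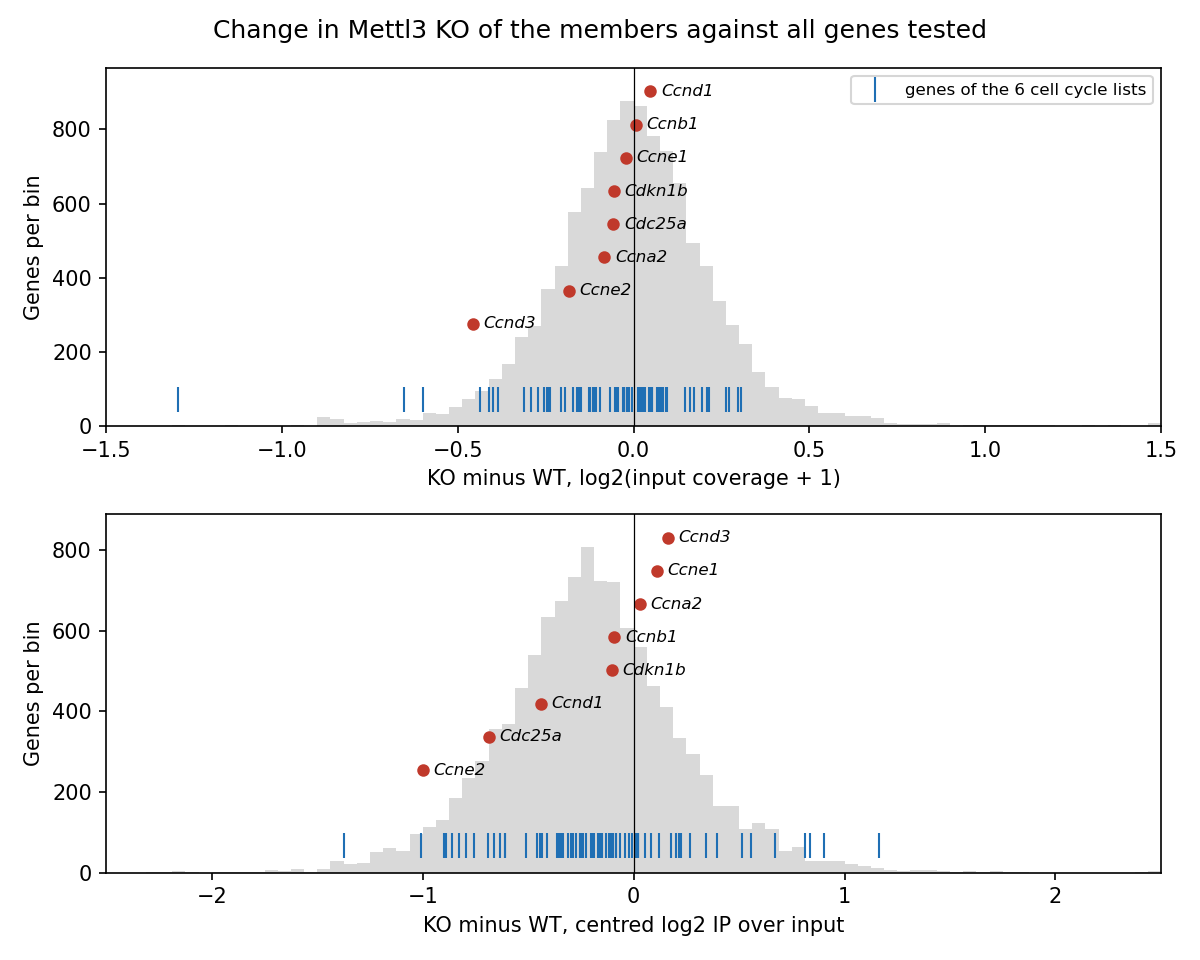
KO minus WT for the input level (top) and for whole-gene IP over input (bottom), with all genes tested as grey histograms (genes per bin), members as named red points at arbitrary heights, and genes of the 6 lists as blue ticks, values beyond the axis drawn at its end. Ccnd3 lies to the left at -0.46 in the top panel, and Ccne2 and Cdc25a at -1.0 and -0.68 in the bottom panel.

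The second question was how much of each transcript the m6A antibody brought down. IP over input was log2((IP + 1)/(input + 1)) of whole-gene coverage, less each library's median outside enriched regions. Cdc25a and Cdkn1b were the most enriched members in WT and Ccna2 and Ccnb1 the least. Among all genes tested, the WT mean of Cdc25a was above 73.2% and that of Cdkn1b above 66.0%. The WT means of Ccnd1, Ccne2 and Ccne1 were above 36.1%, 35.3% and 32.6% of genes. In KO the largest differences were in Ccne2 and Cdc25a, and neither passed. In this comparison 0 of 8 members passed, and 0% of the 11211 genes tested did (limma, Benjamini-Hochberg). At an unadjusted p under 0.05 there were 2 members, against 18.1% of all genes. The median difference was -0.10 over the 8 members and -0.21 over all genes, and 5 of 8 members had a lower mean in KO, against 70.8% of all genes.

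**Figure D4:**
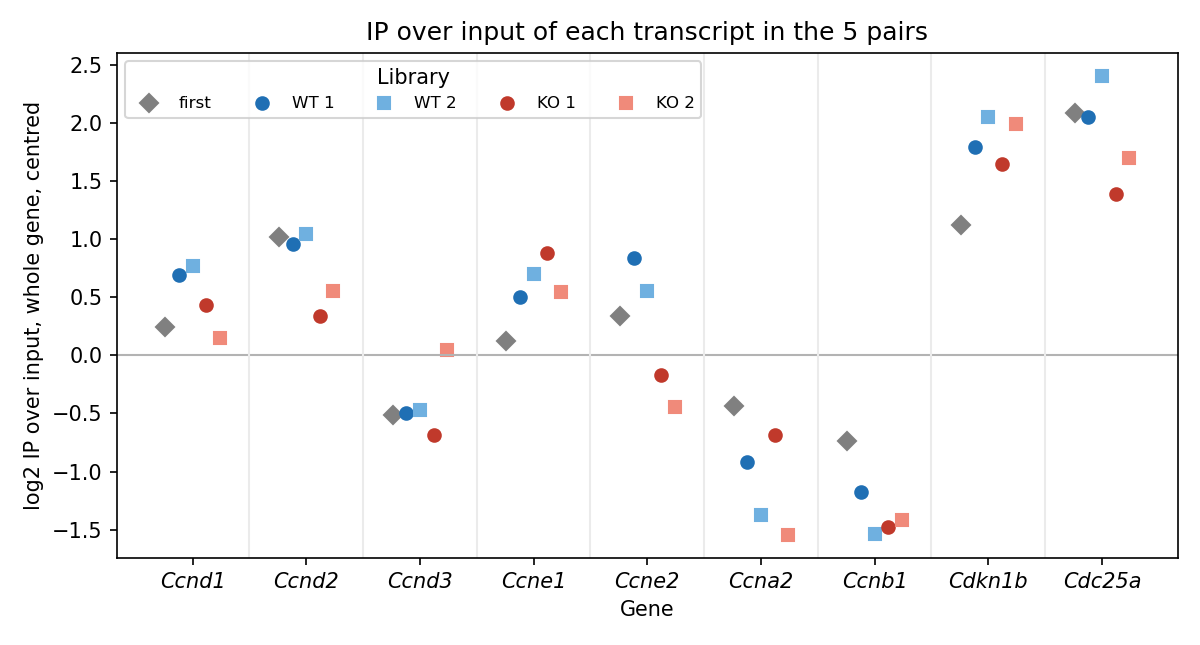
Centred log2 IP over input of the whole transcript for the 9 genes, 1 point per pair. Both KO points of Ccne2 (-0.17 and -0.44) lie below 0 and both WT points above it, whereas Cdkn1b in KO (1.64 and 1.99) overlaps WT (1.79 and 2.05).

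Cdc25a had a centred log2 IP over input of 2.05 and 2.40 in the WT pairs, 1.39 and 1.70 in the KO pairs and 2.09 in the first pair. The KO pairs lay below the WT pairs, and the difference of -0.68 ± 0.23 (SE) had an unadjusted p of 0.0229 and a limma adjusted p of 0.220. Without KO replicate 2 the difference was -0.84, and without KO replicate 1 it was -0.53. Over all alternatives it lay between -0.86 and -0.51. The KO mean of Cdc25a, 1.54, was still above 0, the level outside enriched regions in the libraries. Whole-gene values above 0 were common, as the WT mean of Ccne1, 0.60, was above that of only 32.6% of genes tested.

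Ccne2 had 0.84 and 0.56 in the WT pairs, -0.17 and -0.44 in the KO pairs and 0.34 in the first pair. This was the largest difference among the members, -1.0 ± 0.26 (SE), with an unadjusted p of 0.00665 and a limma adjusted p of 0.185. With KO replicate 1 left out the adjusted p was 0.0246, where 6.05% of all genes passed, and with KO replicate 2 left out it was 0.0316, where 18.5% did. With WT replicate 1 or WT replicate 2 left out it was 0.593 and 0.938. Coverage was thin in the Ccne2 IPs, with 14.3% and 67.1% of windows at 0 in WT and 77.1% and 60.0% in KO, and the part of depth in the difference was not tested.

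Cdkn1b had a centred log2 IP over input of 1.79 and 2.05 in WT, 1.64 and 1.99 in KO, with 1.12 in the first pair, with overlap (difference -0.10 ± 0.23, SE, limma adjusted p = 0.832). Ccnd1 had 0.69 and 0.77 in WT against 0.43 and 0.15 in KO. The KO pairs of Ccnd1 lay below the WT pairs, with a difference of -0.44 ± 0.24 (SE, limma adjusted p = 0.375). Thus 3 of 8 members tested, Ccnd1, Ccne2 and Cdc25a, had both KO pairs below both WT pairs, a pattern seen in 41.7% of all genes tested. The untested Ccnd2 had 0.96 and 1.04 in WT against 0.34 and 0.55 in KO, at the low coverage given above.

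The other 4 members overlapped between WT and KO. Ccnb1 had -1.17 and -1.53 in WT against -1.47 and -1.42 in KO, and its WT mean was above that of 1.78% of the genes tested. Ccna2 had -0.92 and -1.37 in WT against -0.69 and -1.54 in KO, with a WT mean above 2.71% of genes. Ccnd3, the member whose transcript level fell, had -0.49 and -0.47 in WT against -0.68 and 0.04 in KO, and its WT mean was above that of 8.81% of genes. Ccne1 had 0.50 and 0.70 in WT against 0.88 and 0.54 in KO.

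Windows show where along the transcripts the IP was enriched. The authors' winscore is the log2 of IP over input in a window, each divided by its own median over the gene. Enriched regions were taken from the first IP, which is on neither side of the comparison, as runs of 2 or more consecutive windows with a winscore of 2 or more. There were 9963 such regions, in 6013 of 11018 genes with enough coverage. Among the members tested, Cdc25a held 3 and the others none. In Cdkn1b, the peak of exon 3 reached 2.11 in the first pair in window 3 and 1.96 in window 2, and so lacked a second window at the threshold. Ccnd2 held a run in exon 1 (windows 80 to 84) below the coverage filter, with 2.44 in the first pair, 1.87 and 2.15 in WT against 0.561 and 0.156 in KO.

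Cdc25a carried its strongest enrichment in exon 15, the last exon on its plus strand. The region of windows 15 to 18 had a mean winscore of 4.96 and 5.54 in WT, 3.01 and 3.90 in KO, with 2.95 in the first pair. Its highest window, number 17, had an IP coverage of 531 and 617 in WT against 176 and 298 in KO, over input coverage of 17.0 and 21.8 in WT against 20.3 and 20.6 in KO. The groups did not overlap, and the winscore difference was -1.80 ± 0.58 (SE) with an unadjusted p of 0.0124 and a limma adjusted p of 0.560. A second region in exon 15, windows 5 to 11, had 3.60 and 4.23 in WT, 1.46 and 2.84 in KO, with 3.51 in the first pair, a difference of -1.76 ± 0.68 (SE, limma adjusted p = 0.595). The third region, from window 10 of exon 1 to window 2 of exon 2, had 3.29 and 3.27 in WT, 2.24 and 1.97 in KO, with 2.93 in the first pair (difference -1.17, limma adjusted p = 0.629). All 3 regions kept a winscore above 1 in both KO libraries. A further Cdc25a run, windows 1 and 2 of exon 1, was picked on the WT winscores and is described without a test. Its centred log2 IP over input was 2.08 and 2.72 in WT against 4.01 and 3.04 in KO, higher in both KO libraries. The winscore of this run, 2.38 and 3.29 in WT against 3.90 and 2.90 in KO, overlapped.

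None of the 3 Cdc25a regions passed, and 0% of the 9963 regions tested for winscore did. In all 3 regions both KO winscores lay below both WT winscores, against 22.0% of all regions. Of the 3, 2 had an unadjusted p under 0.05. The 3 regions lie in 1 gene and share its medians and libraries, so they are not independent observations to set against those shares. By centred log2 IP over input the same regions had differences of -1.31 (windows 15 to 18 of exon 15, limma adjusted p = 0.266), -1.25 (adjusted p = 0.340) and -0.64 (adjusted p = 0.485), where 0% of 9475 regions passed and the median over all regions was -0.44. In that test too, both KO values lay below both WT values in all 3 regions, against 46.2% of all regions, and 1 of the 3 had an unadjusted p under 0.05, against 16.8%. In the winscore test the share of all regions at an unadjusted p under 0.05 was 8.12%. With 1 KO library left out, the differences of both exon 15 regions kept their sign and changed in size. For windows 15 to 18 the winscore difference was -2.24 without KO replicate 2 and -1.35 without KO replicate 1. For windows 5 to 11 it was -2.45 and -1.07. In the same order, the IP over input differences were -1.72 and -0.89 for windows 15 to 18. They were -1.998 and -0.50 for windows 5 to 11. The larger values thus rested on KO replicate 1, whose IP had 31.25% of the Cdc25a windows at 0, against 15% in KO replicate 2. The part of depth in these sizes was not tested. Each of these fits leaves 1 KO library, so only the sizes are given.

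**Figure D5:**
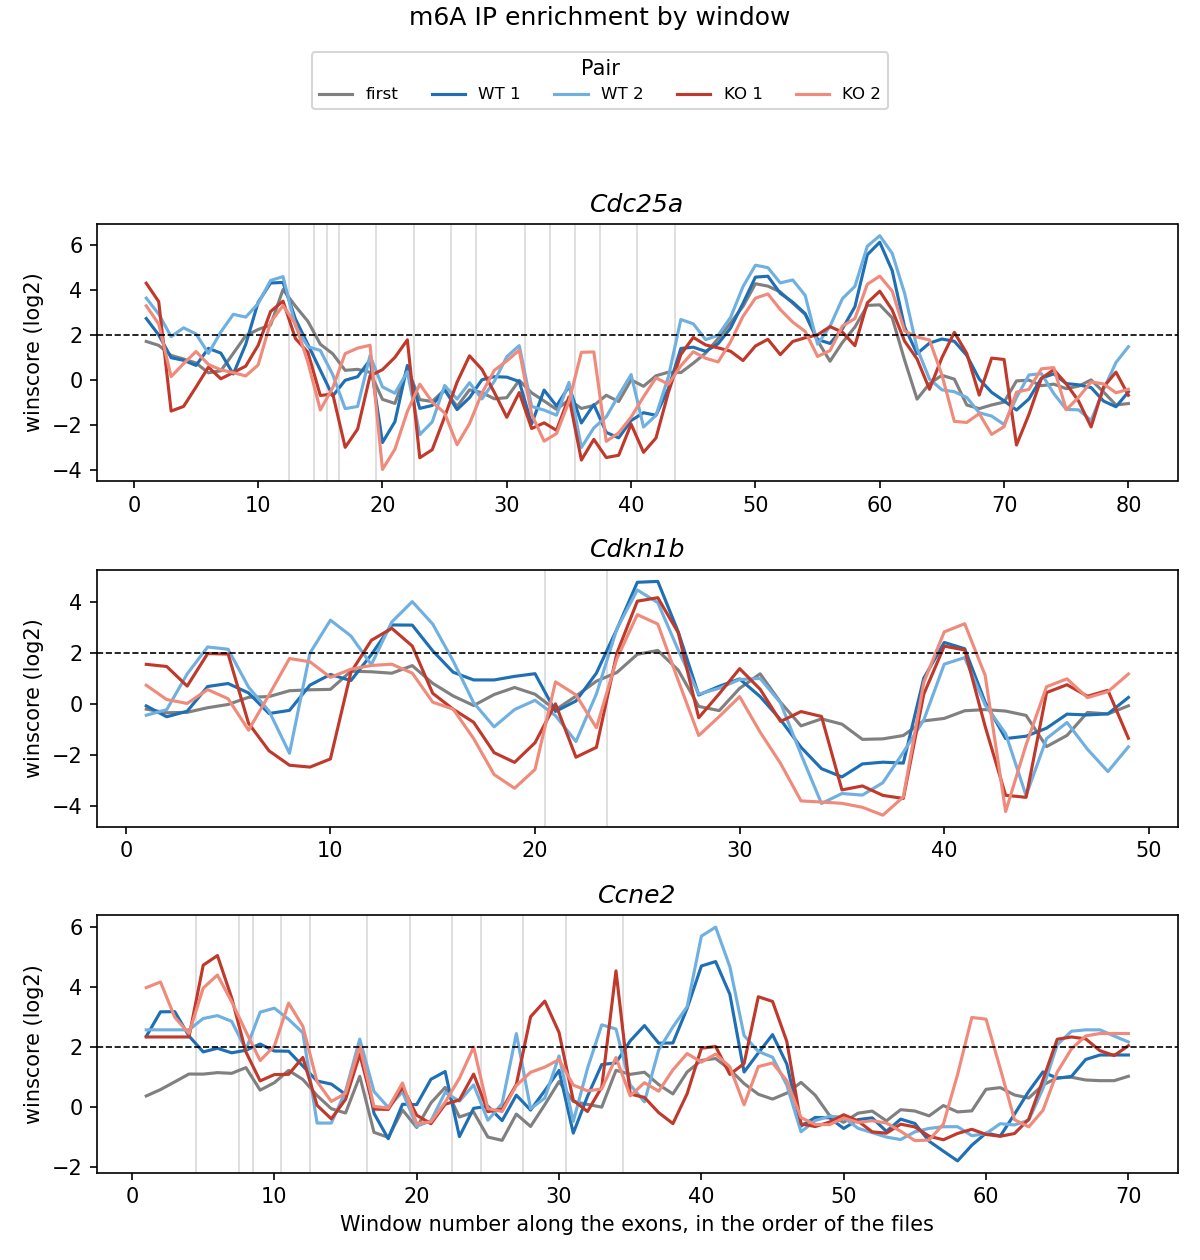
Winscore (log2) in each window of Cdc25a, Cdkn1b and Ccne2 along the exons in the order of the files, with grey lines at exon borders, a dashed line at a winscore of 2 and 1 line per pair. In the last exon of Cdc25a both peaks are lower in KO than in WT, the Cdkn1b peak of exon 3 stays above 2 in KO, and the WT peak of Ccne2 in exon 13 (4.85 and 6.0 in window 7) is at 2.02 and 1.77 in KO.

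The promoter of Cdc25a is shown because E2F factors are part of the lists above and Cdc25a was the only 1 of the 5 members with a RefSeq promoter whose 250 upstream bases held the E2F letters. The 100 bases before its start are at chr9:109875479-109875578 (plus strand, RefSeq, GRCm38.p6). Capitals mark the E2F match and a CCAAT box on the other strand. The E2F letters were found in 137 of 32851 promoter windows of 250 bases (0.417%), CCAAT in 33.8% and CHR in 16.0%, on either strand. These shares are not for the 100 bases printed. No matches overlapped in the stretches printed. For comparison the stretch of Ccnb1, chr13:100786487-100786586 on the minus strand, held 2 CCAAT boxes in capitals.
Cdc25a: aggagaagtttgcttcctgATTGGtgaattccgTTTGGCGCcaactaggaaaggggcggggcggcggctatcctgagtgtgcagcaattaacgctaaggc
Ccnb1: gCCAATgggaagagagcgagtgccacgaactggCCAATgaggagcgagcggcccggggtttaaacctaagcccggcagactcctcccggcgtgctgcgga

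The other members tested showed peaks in the WT IPs that did not form a region in the first IP. These windows were picked for their WT winscore, so their values are a description without a test. In Cdkn1b, window 2 of exon 3, the last exon on its plus strand, had a winscore of 4.77 and 4.47 in WT, 4.04 and 3.51 in KO, with 1.96 in the first pair. Its IP coverage was 249 and 251 in WT against 178 and 206 in KO, over input coverage of 14.2 and 15.6 in WT against 17.9 and 16.7 in KO. The winscore of this Cdkn1b window was thus above 3 in both KO libraries, though lower than in WT. Over windows 1 to 4 of exon 3, the centred log2 IP over input was 4.29 and 4.09 in WT against 3.67 and 3.55 in KO. In exon 1 of Cdkn1b, windows 13 to 15 had a winscore of 2.76 and 3.46 in WT against 1.89 and 0.956 in KO. Their centred log2 IP over input was 3.06 and 3.998 in WT against 2.49 and 1.97 in KO.

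Among these WT peaks of members, the one of Ccne2 in exon 13, its longest exon, had the largest drop in IP over input in KO. In window 7 the IP coverage was 64.3 and 73.4 in WT against 5.45 and 4.06 in KO, over input coverage of 6.54 and 5.94 in WT against 7.03 and 7.14 in KO. The winscore of this window was 4.85 and 6.0 in WT, 2.02 and 1.77 in KO, with 1.62 in the first pair. Over windows 3 to 8 of the exon, the centred log2 IP over input was 2.97 and 3.02 in WT against -0.23 and -0.13 in KO. The KO values were thus close to 0, which is the library's own level outside enriched regions. The winscore of Ccne2 was also high in exons 1 and 2 in KO, where the KO inputs held 0 coverage, so those windows carry no measure of enrichment.

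In Ccnd1, window 20 of exon 1 had a winscore of 3.36 and 4.27 in WT against 3.41 and 4.22 in KO, with full overlap. Its IP coverage was 86.3 and 148 in WT against 50.04 and 86.3 in KO, so that IP coverage was lower in KO while the winscore, which divides by the gene's own median, overlapped. Over windows 19 to 21 of that exon, the centred log2 IP over input was 2.58 and 3.37 in WT against 1.47 and 2.38 in KO. Windows 23 to 25 had 2.65 and 3.31 in WT against 1.45 and 2.09 in KO. In windows 53 and 54 this value overlapped, at 2.19 and 2.80 in WT against 2.71 and 2.88 in KO. The winscore of windows 53 and 54, 2.53 and 3.19 in WT against 4.18 and 4.09 in KO, was higher in both KO libraries. In Ccne1, which lies on the minus strand so that exon 1 of the files is its 3′-most, window 11 of exon 1 had a winscore of 3.27 and 4.26 in WT against 1.96 and 2.11 in KO. In the same exon, windows 4 to 7 had 2.47 and 3.11 in WT against 2.55 and 2.40 in KO.

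In Ccnb1, also on the minus strand, windows 18 to 20 of exon 1 had a winscore of 2.39 and 3.10 in WT against 0.797 and 2.13 in KO. In Ccna2, windows 12 and 13 of exon 1 had 2.08 and 2.23 in WT against 3.10 and 2.95 in KO, higher in both KO libraries. In Ccnd3, windows 1 and 2 of exon 3 had 2.46 and 4.07 in WT against 2.36 and 3.41 in KO, with overlap. Over the 21 regions of members taken from the WT mean that had enough input, 14 had a lower centred log2 IP over input in KO, with a median difference of -0.58. The same over 20978 regions was 74.7% lower, with a median of -0.50, and choosing regions on the WT libraries by itself favours higher WT values.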

How the data were processed

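Reads were aligned with TopHat 1.1.3 to mm9, per the submitters' processing notes. For each exon window the deposited files hold a coverage signal of IP and input and a log2 score (winscore), per the file headers; recomputing the winscore returned it in all 1510223 windows. A deposited table gives RPKM values, per the file headers. For scaling, read filters, window width and strand handling the sources used here give nothing, so overlapping genes and copies are uncertain.

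Mean input coverage per gene (genes reaching 1 in 2 or more of the 4 inputs compared), region winscore, and region and whole-gene log2((IP + 1)/(input + 1)), centred on the library's median outside regions (first winscore below 1; 6460 genes with input coverage of at least 5), were tested with limma 3.58.1 (R 4.3.3; lmFit, eBayes with trend, Benjamini-Hochberg over all features, threshold 0.05), checked on simulated data. Other steps used Python 3.11.15, numpy 2.4.6, pandas 2.3.3, scipy 1.17.1 and matplotlib 3.10.9. Members, lists, markers and tests were chosen with earlier results of these data known. The genes named were all members, Mettl3, up to 4 genes of smallest p per list and, for the member of widest input range, the 3 nearest genes. Promoter sequences came from RefSeq (GRCm38.p6), which matched 5 of the 9 members. WT and KO were taken from the genotype label. Same-numbered libraries did not deviate together (r = -0.03 for input level).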

Additional observations from a re-analysis of the deposited data

Results flagged for a closer look

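The whole-gene IP over input of Ccne2 was above the library's level outside regions in both WT pairs and below it in both KO pairs, with a difference of -1.0 on the log2 scale. The limma test of the difference did not pass (adjusted p = 0.185).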

How the results depend on the processing

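In the alternatives run, Ccnd3 kept its fall and its call. With the RPKM columns, 5 members passed in place of 1, Cdkn1b turned to 0.71 (adjusted p = 0.00793) and Ccnb1 to -2.45 (adjusted p = 0.00115), and 7965 genes passed in place of 2977; these columns follow the KO IP tracks. Genes passing the input test numbered 1930 of 6309 (30.6%) with coverage of at least 5, 1232 of 10532 (11.7%) with median coverage and 762 of 21812 (3.49%) without a filter, against 26.6%. With 1 library left out, members passing ranged from 1 to 1 for input level, and from 0 to 2 for gene IP over input, region IP over input and region winscore; the calls came with a KO library left out, which leaves 1 KO library assumed to vary like the WT libraries. All features passing then ranged from 1743 to 3144, 0 to 2075, 0 to 1671 and 0 to 1221. Gene IP over input with coverage of at least 5 had 1 gene passing. IP over input in regions from the mean of the WT IPs, chosen after seeing the data, had 0 passing. With the replicate number as a block, Ccnd3 stayed at -0.46 (adjusted p = 0.00135), 1 member passed for input level and 0 in the other tests, 60 regions passed for winscore in place of 0, and no call of a member changed; the numbers do not pair the libraries. The low depth of the WT and KO IPs relative to the first IP, and the first pair being a single library, limit what the IP comparisons can show.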
